A study of Mus musculus with 8 samples.

Results

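The first stretch of assembled sequence on mouse chromosome 14 holds a dense array of predicted genes that are near-copies of each other. In ventricles of embryos whose cardiomyocytes had lost Rps19bp1, the summed RNA level of this array was 65.9% of that in control ventricles, and no library of either group reached the range of the other. The array was defined as every row on chromosome 14 that starts at or beyond base 3000000, ends at or before base 7700000 and has a symbol of the kind given to predicted genes (Gm or LOC followed by digits, a Rik ending or a -ps pseudogene tag). It has 163 rows of the 52778 in the table, and every row inside the interval met the symbol rule. Of these, 150 symbols start with Gm, 5 with LOC, 6 end in Rik and 2 carry -ps. The interval and its rows were chosen with the difference between these same knockout and control libraries in view, both as the summed level and per row. Differences between the groups for these rows are therefore given as a description, with no test.

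The study sequenced RNA from ventricular heart tissue of mouse embryos at embryonic day 11.5, with 4 knockout and 4 control libraries. The knockout embryos (cKO) were Rps19bp1 fl/fl; Xmlc2-Cre +/−, so the floxed gene is deleted where Xmlc2-Cre is active, which the series text gives as cardiomyocytes. The controls are labelled as Control, with no Cre or flox genotype stated, and the genotype field of all 8 libraries reads C57BL/6 WT. No drug or other agent was given to either group, and all libraries carry batch 1. The labels conflict: their extraction text names cortical neurons in culture and ribosomal RNA depletion, and the series text names ventricle and a stranded mRNA kit. The series text calls the 4 libraries of a group biological replicates, and nothing says whether each came from a single embryo, so p-values measure only the spread between these libraries. Dissected ventricle holds endocardial, epicardial and blood cells beside cardiomyocytes. In such bulk tissue, fewer cells of a type and less RNA per cell cannot be told apart.

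The array belongs to the takusan family (also called alpha-takusan), a group of genes greatly expanded in rodents. The family is named after 2610042L04Rik, for which RefSeq lists the synonyms takusan and Tksn. Takusan proteins are short and resemble a part of Dlg5, a large scaffold protein of the membrane-associated guanylate kinase (MAGUK) class. In neurons they have been described as acting on the postsynaptic scaffold protein PSD-95, the product of Dlg4, and on synaptic activity. Most family members carry only a placeholder symbol, and no role in the embryonic heart is assumed here.

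Of the 163 rows, RefSeq lists 76 as protein_coding, 45 as pseudogene, 5 as transcribed_pseudogene, 35 as lncRNA and 2 as misc_RNA. By alignment of their GENCODE vM21 transcripts, 84 rows were takusan-like. A further 13 were processed copies of Rpl3, a protein of the large ribosomal subunit, and 9 were copies of Esd, an esterase that hydrolyses S-formylglutathione. Another 11 belonged to other groups, and 46 had no GENCODE transcript of the same symbol or position. The 80 takusan-like rows with a coding sequence encode proteins of 146 to 270 residues. When compared with the 1921 residues of mouse Dlg5 alone, 77 of these aligned at an E value of at most 0.001. The alignments spanned 73 to 154 residues with 23.3% to 32.4% identity. This limit is looser than the E value of 1e-10 used below for related rows. At 1e-10, in a search of all GENCODE proteins, 0 aligned to Dlg5.

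Close copies of the family differ at few positions. This is shown by a stretch of 90 coding bases from 6 takusan-like rows. They are the namesake, 4 of the 6 most abundant rows and a row with little difference between the groups. Other takusan-like rows are less alike, such as Gm8159 with 72.1% protein identity to 2610042L04Rik. The stretch is the gap-free window of this length in an alignment of 7 coding sequences that holds the most differences, and 7 of its positions vary. Capitals mark bases that differ from 2610042L04Rik at the same aligned position. Each is read 5′ to 3′ along the coding strand of the GENCODE vM21 transcript.
2610042L04Rik: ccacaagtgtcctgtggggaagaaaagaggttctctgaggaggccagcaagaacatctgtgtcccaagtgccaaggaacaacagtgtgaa
Gm3005: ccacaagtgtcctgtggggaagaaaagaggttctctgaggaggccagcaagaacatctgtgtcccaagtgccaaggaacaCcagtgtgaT
Gm2956: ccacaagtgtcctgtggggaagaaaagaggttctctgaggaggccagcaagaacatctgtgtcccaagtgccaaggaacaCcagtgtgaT
Gm3002: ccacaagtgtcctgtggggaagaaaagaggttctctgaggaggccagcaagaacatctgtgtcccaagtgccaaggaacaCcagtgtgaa
Gm3636: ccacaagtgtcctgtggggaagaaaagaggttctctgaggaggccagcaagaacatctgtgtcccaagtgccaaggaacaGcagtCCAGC
Gm3194: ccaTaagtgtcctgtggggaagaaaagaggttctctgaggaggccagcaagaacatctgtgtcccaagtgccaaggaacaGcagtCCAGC
Gm3005 and Gm2956 are identical across this stretch, with 2 differences from 2610042L04Rik. Gm3002 has 1 difference, Gm3636 has 6 and Gm3194 has 7. Gm3383 reads the same as Gm3194 here. The stretch occupies coding bases 360 to 449 of 450 in 2610042L04Rik and 558 to 647 of 648 in Gm3005, Gm2956 and Gm3002. It occupies bases 525 to 614 of 681 in Gm3636 and 621 to 710 of 777 in Gm3194. The coding sequences of Gm3636 and Gm3194 thus run on where the others end, and most of their capitals lie at that end.

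This similarity limits what a value per row means. The nearest other transcript was at least 96.8% identical for every tested row with a GENCODE transcript, with a median of 99.4%, and 29 of these 40 rows had a copy at 99% or more. The median share of 50-base words found in no other gene's transcript was 11.2%, and 35 of the 40 rows had under 20% of such words. For 7 rows no word was unique. A read from such a transcript could be assigned to any of several rows, and how the authors assigned such reads is not given in the sources used here. The level of a single row is therefore uncertain. The sum over the array depends less on how reads were divided among its rows, but not wholly: TPM divides by transcript length, tested transcripts run from 519 to 2055 bases, and near-copies also lie outside the interval.

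Promoter sequences were compared to see what the rows with RNA share beside their transcripts. RefSeq promoter windows (GRCm38.p6, 250 bases before to 50 after an annotated start) were found for 103 of the 163 rows, with 153 windows in all. Windows were joined where they aligned over at least 100 bases at 85% identity or more. The largest group held 43 windows of 28 rows and had a mean GC content of 67.4%, against 53.8% over the windows of all genes. The second group held 35 windows of 35 rows with a mean GC content of 48.7%, and 3 rows had windows in both. Within the GC-rich group, 12 rows held the letters CCATATATGG, a palindrome that reads the same on both strands and is a form of the CArG box, the motif class that serum response factor recognises. The stretches below are shown because this group holds most rows with RNA. They were cut from 30 bases before the motif to 40 bases after it, lie wholly before the annotated start and outside the row, and have the motif in capitals.
Gm3752: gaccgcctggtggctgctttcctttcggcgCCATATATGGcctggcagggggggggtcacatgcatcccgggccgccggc
D830030K20Rik: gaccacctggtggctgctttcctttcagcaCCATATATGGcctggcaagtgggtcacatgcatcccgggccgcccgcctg
Gm8108: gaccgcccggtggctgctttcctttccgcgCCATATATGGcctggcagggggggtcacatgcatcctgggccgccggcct
Gm33933: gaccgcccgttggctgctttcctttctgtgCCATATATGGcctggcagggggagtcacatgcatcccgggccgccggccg
Gm3043: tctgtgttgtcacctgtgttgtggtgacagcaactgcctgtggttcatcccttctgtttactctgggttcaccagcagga
On GRCm38.p6 these lie at chr14:7488884-7488963 (minus strand), chr14:3208245-3208324 (plus), chr14:4110192-4110271 (plus) and chr14:6605200-6605279 (minus). The last line, from Gm3043 at chr14:3688708-3688787 (plus), is the 80 bases before the start of the most abundant row that belongs to the second group alone.

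Rows with a GC-rich window held 64.9% of the summed level of the array. Of the 28 rows in that group, 27 had a mean level of at least 1 TPM (transcripts per 1000000, a library's reads divided by transcript length and scaled to a fixed total), and their median was 2.89 TPM. Of the 32 rows with only the second kind of window, 4 reached 1 TPM and the median was 0.00723 TPM. Among 43 rows with other windows, 3 reached 1 TPM, and among 60 rows with no window in the table, 11 did. All 12 rows with CCATATATGG reached 1 TPM. Rows of the GC-rich group without it also did, such as Gm3636, Gm2956 and Gm3264. With 27 of 28 rows reaching 1 TPM, the motif does not set apart the rows with RNA within the group. The motif was present in 11.65% of the 103 rows and in 0.0777% of 27025 genes with a promoter window, that is in 21 genes, which include these 12 rows. It was picked as the most frequent form of the CArG box in the windows of these same rows. Nothing is therefore read from the difference between these shares. Any CArG box was found in the same 12 rows and in 1.81% of all genes. GGGCGG, the core of a GC box, was found in 20.4% of the rows and 38.2% of all genes, and 21 of 21 such rows were in the GC-rich group. CCAAT was found in 34.0% of the rows against 41.1% of genes, and TATAAA in 8.74% against 15.7%. A p53 response element with a spacer of 0 to 13 bases was found in 0 of the 103 rows and in 20 genes. All motifs were searched on both strands, and a match is a match of letters in these windows only. The windows of a group are near-copies, so they are not independent examples of the motif.

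**Figure D1:**
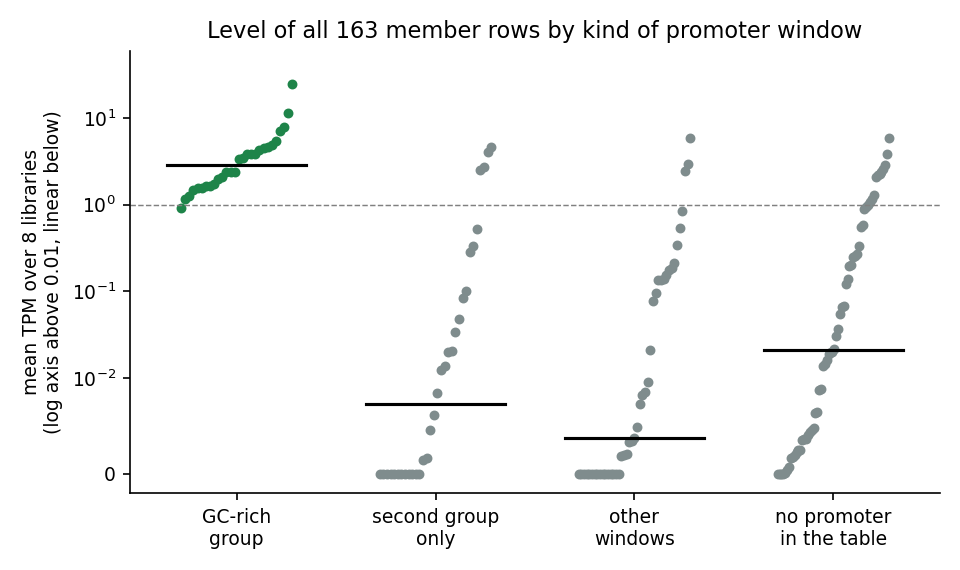
Mean TPM over the 8 libraries (vertical axis, logarithmic above 0.01 and linear below) of all 163 rows, as 1 point each, by kind of promoter window; horizontal bars are medians and the dashed line marks 1 TPM. The GC-rich group has a median of 2.89 TPM, and 27 of its 28 rows lie above the dashed line.

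The table gives TPM, whose columns each sum to 1000000, so the depth behind a value is unknown and no counting error can be given. The array held 0.0129% to 0.0228% of all TPM. Rps19bp1, the targeted gene (chr15:80260614-80264306), was lower in cKO, at 15.0 ± 3.14 TPM against 39.9 ± 3.93 TPM in control (SD, n = 4; limma adjusted p = 0.000508, log2 change -1.37), so the libraries carry the difference their labels name. The 12 cardiomyocyte markers summed to between 47496 and 49885 TPM in cKO and between 47483 and 52100 in control, and 1 of them was called lower. The 12 neuronal markers summed to 18.5 to 22.8 TPM in cKO and 13.3 to 23.3 in control, and 6 of them (Map2, Rbfox3, Snap25, Syt1, Elavl3 and Dcx) were under 1 TPM. Of the 6 tested, 1 was called lower. Levels of 4 epicardial markers (Wt1, Tbx18, Tcf21 and Upk3b) were higher in cKO, with sums of 271.3 to 332.5 TPM against 219.9 to 247.8 in control (exact permutation p = 0.0286, the smallest that 70 assignments allow), and all 4 were called higher. Summed glial and neural crest markers were 14.2 to 14.8 TPM against 11.3 to 13.5 (exact permutation p = 0.0286), with Sox10, Foxd3, S100b and Gfap under 1 TPM. Of the 6 markers in this list, 2 were tested and 0 were called. The permutation p-values are not adjusted for the number of lists. The ranges of the germ cell, erythroid, macrophage and endothelial lists overlapped between the groups. The part of these cell types in the level of the array was not tested.

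Summed over all 163 rows, the array stood at 142.9, 145.7, 129.1 and 158.8 TPM in cKO 1 to 4 and at 209.2, 211.6, 226.6 and 227.7 TPM in control 1 to 4. Every cKO library was below every control library. The means were 144.1 ± 12.2 in cKO and 218.8 ± 9.75 in control (SD, n = 4), a log2 ratio of -0.60. Leaving out any single library, rescaling, or removing Gm3636, the most abundant row, kept this ratio between -0.65 and -0.55. The sum varied less between replicates than its parts did. Its coefficient of variation was 8.44% in cKO and 4.46% in control, whereas the median over tested rows was 17.3% and 15.5%.

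**Figure D2:**
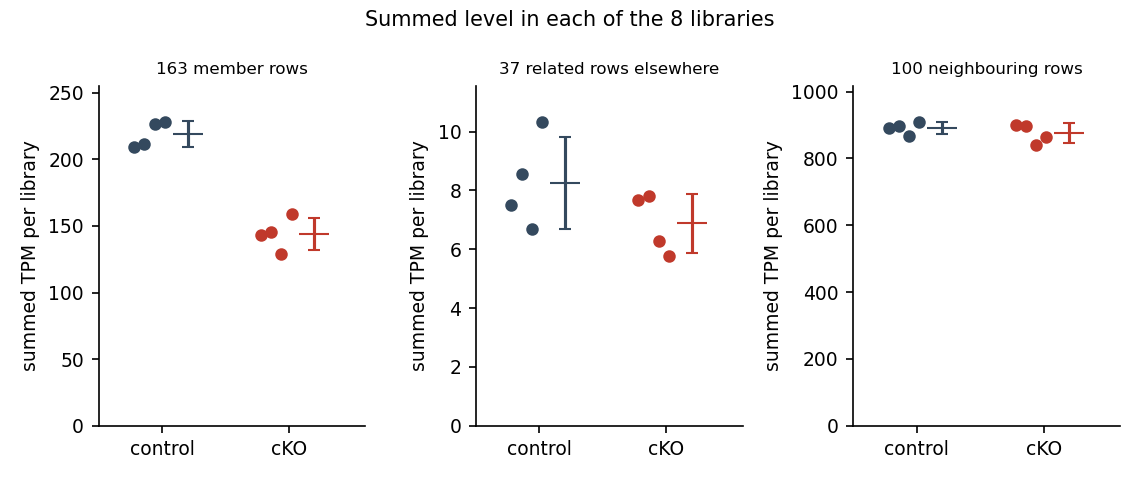
Summed TPM per library (vertical axes from 0) for the 163 rows of the array, for 37 related rows elsewhere on chromosome 14 and for 100 neighbouring rows; points are libraries, and the bar beside them is the mean with its SD over 4 libraries. The groups separate for the array (129.1 to 158.8 against 209.2 to 227.7 TPM) and overlap in the other panels.

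Of the 163 rows, 45 had a mean of at least 1 TPM and entered the fit over all rows, 118 did not, and 32 of those were listed at 0 in every library. The 45 rows held 93.6% of the summed level. Their levels ranged from 1.08 to 24.8 TPM with a median of 2.56, and only 7 reached a mean of 5 TPM. By class, 38 were takusan-like, 2 were Esd-like and 5 had no GENCODE match. None of the 13 Rpl3-like rows was among them, and their summed level did not exceed 0.131 TPM in any library.

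Gm3636 (chr14:6735683-6757601, minus strand), which encodes a protein of 227 residues, was the most abundant row and held 13.6% of the array. It stood at 20.7, 22.0, 20.5 and 21.9 TPM in cKO 1 to 4 and at 34.5, 25.7, 22.0 and 30.7 TPM in control 1 to 4. The lowest control library lay just above the highest cKO library, so the groups touch without overlap. The mean was 21.3 ± 0.781 TPM in cKO and 28.2 ± 5.50 TPM in control (SD, n = 4), or 75.5% of control, and the log2 change of TPM + 1 was -0.37 (SE 0.116).

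Gm3005 (chr14:3571683-3594220, plus strand; 216 residues) was second in level and had the largest fitted change of the array. Its values were 6.81, 7.82, 6.65 and 9.42 TPM in cKO and 14.8, 14.3, 16.3 and 16.5 TPM in control. The highest cKO library stayed well below the lowest control library. The mean was 7.68 ± 1.28 against 15.5 ± 1.08 TPM (SD, n = 4), 49.6% of control, with a log2 change of -0.93 (SE 0.101). Gm2956 (chr14:3332010-3354799, plus strand; also 216 residues) is 99.8% identical to Gm3005 over its 1955 transcript bases. It stood at 5.36, 5.70, 5.56 and 6.60 TPM in cKO and at 9.77, 10.5, 9.22 and 11.1 TPM in control, a log2 change of -0.71 (SE 0.0825). These near-copies thus gave the same direction with no overlap between groups, and reads may have been divided between them.

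Gm3002 (chr14:3814913-3830683, plus strand), listed as a transcribed pseudogene, stood close together in control, at 7.51, 7.77, 7.66 and 7.50 TPM, against 3.99, 4.07, 4.02 and 4.79 TPM in cKO. Its log2 change was -0.73 (SE 0.0738). Lamtor3-ps (chr14:6409557-6425622, minus strand) carries the name of a pseudogene of Lamtor3, a subunit of the Ragulator complex on lysosomes, but RefSeq lists it as protein coding. It stood at 3.97, 4.67, 3.17 and 4.64 TPM in cKO and 6.56, 7.02, 7.18 and 9.37 TPM in control, a log2 change of -0.74 (SE 0.128). Neither row had overlapping groups.

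Gm3264 (chr14:4854917-4876908, plus strand; 238 residues) was the exception among the 6 most abundant rows. Its values of 5.54, 4.54, 4.88 and 7.51 TPM in cKO overlapped those of 8.97, 7.96, 10.1 and 7.03 TPM in control, because cKO 4 exceeded control 4. Its log2 change was -0.53 (SE 0.143). Together these 6 rows held 34.8% of the level of the array.

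**Figure D3:**
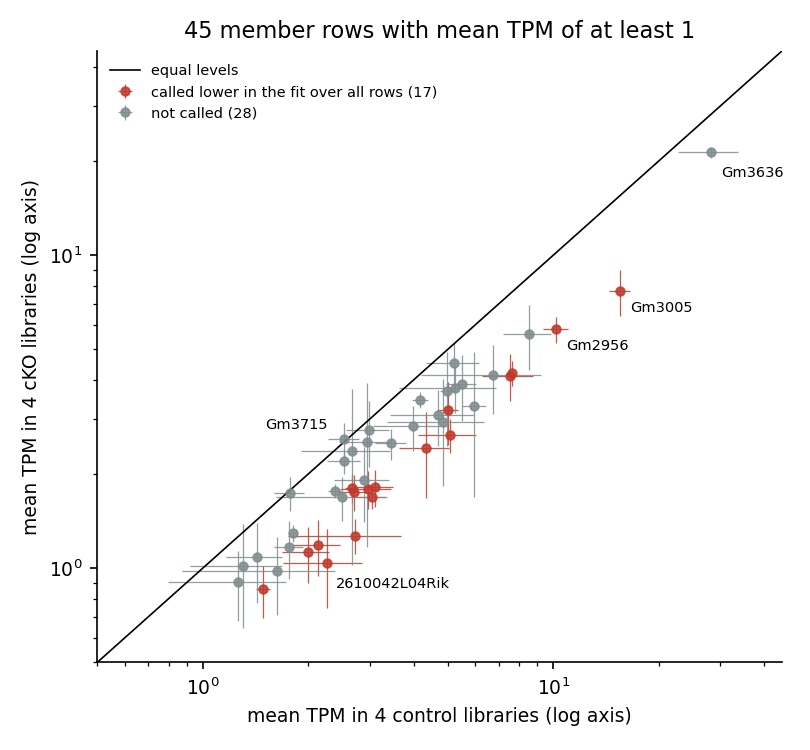
Mean TPM in 4 cKO libraries against mean TPM in 4 control libraries (both axes logarithmic) for the 45 rows with a mean of at least 1 TPM; bars are SDs, the line marks equal levels, and red marks the 17 rows called lower in the fit over all rows. All points but that of Gm3715 lie below the line.

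In the fit over all rows (limma on log2(TPM + 1), called at an adjusted p under 0.05), 17 of the 45 rows were called lower, 0 higher and 28 neither. Over all 15541 rows tested, 4.23% were called lower and 2.16% higher (658 and 336 rows). After rescaling without mitochondrial and globin genes, which changes the balance of the table, 388 rows were called lower and 386 higher. Every cKO library was below every control library in 23 of the 45 rows, against 10.3% of all tested rows. Since the interval was chosen on this contrast, nothing is read from these shares. By sign, 44 of the 45 changes were below 0, against 8678 of 15541 over all tested rows. The median of the 45 was -0.42 (range -0.93 to 0.02), where the median over all tested rows was -0.02. The number called depends on single libraries. It was 7, 8, 6 and 15 without cKO 1, 2, 3 and 4, and 6, 8, 7 and 8 without control 1, 2, 3 and 4. No row of the array was called higher under any of these.

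Libraries were also compared across the rows. A cKO library held the lowest value of all 8 in 44 of the 45 rows, and a control library held the highest in 42. The rows were chosen on this contrast and the share over all tested rows was not computed. Nothing is therefore read from these counts. Within the cKO group, cKO 3 was the lowest of all libraries in 19 rows and cKO 4 in 5. Relative to its own group's mean, cKO 4 was higher in 37 of 45 rows and cKO 3 in 13. The order of the summed values, with cKO 3 lowest and cKO 4 highest in the group, therefore reflects many rows and not Gm3636 alone.

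The family's namesake, 2610042L04Rik (chr14:4333878-4354687, plus strand; 150 residues), stood at 1.01, 1.19, 0.638 and 1.31 TPM in cKO and at 2.39, 2.26, 2.90 and 1.52 TPM in control. The groups did not overlap, although control 4 lay close to cKO 4. The mean of 1.04 ± 0.293 TPM was 45.8% of the control mean of 2.27 ± 0.572 TPM (SD, n = 4), the lowest percentage in the array among the rows with at least 1 TPM. Its log2 change of -0.68 (SE 0.160) is smaller than that of Gm3005 because the added pseudocount of 1 weighs more at this level. Gm3043 (chr14:3688788-3697894, plus strand) varied widely among the cKO libraries. It stood at 5.51, 3.36, 2.42 and 1.88 TPM in cKO and at 5.33, 6.23, 6.41 and 5.83 TPM in control. The value of cKO 1 lay within the control range, and the log2 change was -0.76 (SE 0.211) with all libraries and -0.99 without cKO 1.

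At the other end stood 4 rows that differed little. Gm3715 (chr14:7222557-7244812, minus strand), a transcribed pseudogene, was at 2.71, 2.96, 2.22 and 2.45 TPM in cKO and at 2.31, 2.37, 2.56 and 2.89 TPM in control. Its mean was 2.58 ± 0.319 against 2.53 ± 0.259 TPM (SD, n = 4). The fitted log2 change of 0.02 (SE 0.101) was one whose sign turned under quantile normalization (-0.01) and when cKO 2, control 1 or control 2 was left out. The groups overlapped through most of their range. Gm3194 (chr14:5429265-5460410, minus strand) was at 1.97, 1.51, 1.61 and 1.87 TPM in cKO and at 1.67, 1.66, 1.73 and 2.03 TPM in control, with a log2 change of -0.02 (SE 0.104). Gm3252 (chr14:4728352-4746360, plus strand) and Gm3512 (chr14:7155552-7175383, minus strand) had log2 changes of -0.09 (SE 0.138) and -0.15 (SE 0.0976). Gm3194 and Gm3252 changed sign when single libraries were left out, and Gm3194 also after rescaling.

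Pairs of rows with the same longest GENCODE vM21 transcript were compared and summed. The rows themselves stand at RefSeq positions, and their RefSeq transcripts were not compared, so these may differ. In the first pair below, Gm3194 has a GC-rich promoter window and Gm3383 has only other windows. Gm3194 and Gm3383 (chr14:5790561-5813737, minus strand) share all 1813 bases of the GENCODE transcript. The log2 change was -0.02 for the first and -0.35 (SE 0.0978) for the second. Their sum stood at 4.41, 3.68, 4.15 and 4.73 TPM in cKO and at 4.77, 4.93, 5.27 and 5.91 TPM in control, 81.3% of control. Summed, the groups did not overlap, by a narrow margin. Gm10409 (chr14:3412614-3433857) and Gm3020 (chr14:3652030-3672140), both on the plus strand, share all 1933 bases of the GENCODE transcript. They gave log2 changes of -0.72 (SE 0.121) and -0.35 (SE 0.179). Their sum was 4.33, 4.60, 3.63 and 4.84 TPM in cKO against 8.35, 6.10, 6.76 and 9.05 TPM in control, 57.5% of control with no overlap. Rows with the same GENCODE transcript thus carried different values. Whether this comes from the division of reads or from different RefSeq transcripts was not tested.

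The limits of the array and of the 1 TPM threshold were examined without a test. Just above 1 TPM stood Esd-ps (0.905 ± 0.226 in cKO, 1.26 ± 0.466 in control) and Gm3248 (1.02 ± 0.371 and 1.30 ± 0.382; all SD, n = 4). Just below stood Gm17045 (0.807 ± 0.357 and 1.17 ± 0.455) and Gm17046 (0.492 ± 0.226 and 1.40 ± 0.984; SD, n = 4). All 4 pairs of groups overlapped. The 118 rows below the threshold summed to 8.69 TPM in cKO and 14.7 TPM in control. Of the 86 among them with any value above 0, 72 had a lower mean in cKO and 14 a higher mean. Many of these means lie near 0, and the share over all rows below the threshold is not given. The rows were chosen on this contrast, so nothing is read from these counts. The first row, Gm41084 (chr14:3018445-3026389), was listed at 0 in every library, and no row of the table precedes it on the chromosome. The last row, Gm38418 (chr14:7644231-7658936, minus strand), stood at 1.53, 1.64, 2.08 and 1.91 TPM in cKO and at 2.85, 2.33, 3.21 and 3.44 TPM in control, with no overlap.

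Position and strand ran together along the array. Before its midpoint at 5.35 Mb, 20 of the 21 tested rows lay on the plus strand, and after it 22 of 24 lay on the minus strand. Among all 163 rows the same tilt was seen, with 56 of 81 on the plus strand before the midpoint and 54 of 82 on the minus strand after it. The median level in cKO was 60.4% of control before the midpoint (range 45.8% to 92.9%) and 73.1% after it (range 54.6% to 102.0%). By strand it was 59.5% for the 22 plus-strand rows and 73.6% for the 23 minus-strand rows. Summed over each strand, the array stood at 69.2 ± 5.93 against 116.4 ± 10.5 TPM on the plus strand and at 74.9 ± 6.82 against 102.4 ± 6.65 TPM on the minus strand (SD, n = 4), with no overlap between groups on either. Strand and position cannot be told apart here. Across the 45 rows the fitted change correlated with start position at Pearson r = 0.41 (Spearman 0.38) and with log2 mean level at r = -0.40 (Spearman -0.39). Across the 40 rows with a transcript it correlated with the share of unique words at r = 0.23 (Spearman 0.19). These rows share libraries and reads, and the pseudocount of 1 draws the change of low rows toward 0, so the values are descriptive only. In addition, 20 of the 45 rows overlap another row of the array on the opposite strand, and whether strand was used in counting is not given in the sources used here.

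**Figure D4:**
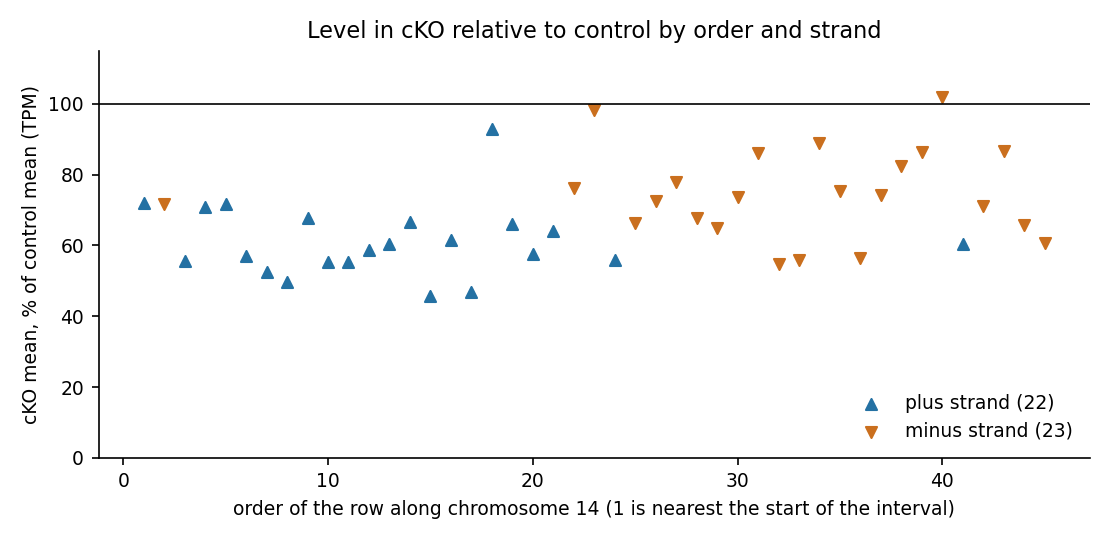
Mean level in cKO as a percentage of the control mean (vertical axis, from 0) for the 45 rows in their order along chromosome 14 (horizontal axis); upward triangles are plus-strand and downward triangles minus-strand rows. Plus-strand rows fill the first part with a median of 59.5%, and minus-strand rows the second with a median of 73.6%.

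By class, the groups were apart for takusan-like rows and for rows without a GENCODE match. Takusan-like rows summed to 125.8 ± 11.3 TPM in cKO and 188.6 ± 6.54 in control, 66.7% of control. The 46 rows without a GENCODE match summed to 13.2 ± 1.66 and 22.0 ± 1.57 TPM, 59.9% of control (all SD, n = 4). The groups did not overlap in either. The 9 Esd-like rows summed to 3.41 to 4.74 TPM in cKO and 4.48 to 9.02 TPM in control, and these ranges overlap. The 11 rows of other groups also overlapped, at 0.852 to 1.17 TPM in cKO and 1.14 to 1.98 TPM in control. By RefSeq type, protein-coding rows stood at 66.3% of control, pseudogenes at 64.7% and non-coding RNAs at 61.1%. Of the 37 non-coding RNAs, only 1 was tested. Rows with a GC-rich promoter stood at 67.1% (94.6 ± 7.71 against 140.9 ± 4.22 TPM) and rows with only the second kind of window at 68.5% (12.6 ± 2.98 against 18.4 ± 0.839 TPM; SD, n = 4). In these sums the promoter groups differed widely in level and little in the relative level in cKO. Only 4 rows with the second kind of window alone were tested, and they varied. Gm3043 stood at 55.3% of control, Gm3317 at 64.1%, Gm16440 at 86.1% and Gm8050 at 89.0%.

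Relatives of the array outside the interval had no part in its choice, so they can be tested. In GENCODE, 61 further genes encode proteins that aligned to those of the array at an E value of at most 1e-10. Of these, 37 were matched by symbol to a row outside the interval, all on chromosome 14. The others are not covered here. Only Gm2237 (chr14:19563801-19585798, minus strand) reached 1 TPM. It stood at 6.77, 6.97, 5.54 and 5.27 TPM in cKO and at 7.13, 7.64, 5.65 and 9.25 TPM in control, with overlapping groups (log2 change -0.23, SE 0.133, limma adjusted p = 0.336). Its transcript is 97.5% identical to that of Gm3558, a row of the array. The next in level, Gm2244, was at 0.294 ± 0.0785 against 0.464 ± 0.253 TPM and Gm5458 at 0.182 ± 0.0300 against 0.184 ± 0.0345 TPM (SD, n = 4). Summed, the 37 rows stood at 7.67, 7.80, 6.28 and 5.77 TPM in cKO and at 7.52, 8.55, 6.67 and 10.3 TPM in control, a log2 ratio of -0.26 that did not exceed the spread between libraries (exact two-sided permutation p = 0.2). Whether this ratio differs from that of the array was not tested.

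Rows next to the array gave 1 call, too few to compare their rate of calls with that of rows in general. Of 100 rows from 7.7 Mb over the next 10 Mb, 26 were tested, 1 was called lower (3.85%, against 4.23% of all tested rows) and 0 higher, and the median change was -0.03. Their sum was 98.3% of control. The row that was called lower was Cfap20dc (chr14:8431171-8666336), at 16.9 ± 1.93 against 24.1 ± 1.07 TPM (SD, n = 4; limma adjusted p = 0.00772, log2 change -0.50). It is named because it was the only call, after its value was seen. Predicted rows elsewhere in the genome, with symbols of the same kind, numbered 27621. Of the 2710 tested, 31 were called higher (1.14%) and 33 lower (1.22%) by limma, with a median change of 0.02. Over all tested rows the shares were 2.16% and 4.23%.

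The wider MAGUK family of Dlg5, which takusan proteins resemble, was examined as a list that also holds Dlg4. Whether takusan proteins resemble or act on its other genes was not tested. Of 19 genes for MAGUK scaffolds, 16 were tested, 1 was called higher and 1 lower, and the median change was -0.04. Each call is 6.25% of the tested genes, against 2.16% higher and 4.23% lower over all tested rows. These are too few calls to compare with that background. Dlg5 stood at 25.5, 24.7, 25.4 and 26.2 TPM in cKO and at 24.5, 23.2, 26.0 and 27.7 TPM in control, within the same range (log2 change 0.01, SE 0.0600, limma adjusted p = 0.955). Dlg4, which encodes PSD-95, was at 19.5 ± 1.56 against 18.4 ± 2.88 TPM (SD, n = 4; limma adjusted p = 0.664, log2 change 0.09, SE 0.103). The calls were Dlg2, a relative of Dlg4, which rose from 2.81 ± 0.891 to 4.93 ± 0.593 TPM (SD, n = 4; limma adjusted p = 0.0380), and Mpp6, which fell from 44.4 ± 3.98 to 36.0 ± 2.43 TPM (SD, n = 4; limma adjusted p = 0.0393). Both calls were lost when cKO 1, cKO 2, cKO 3, control 1 or control 2 was left out.

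Of 23 postsynaptic scaffold and receptor genes, 11 were tested, 1 was called higher and 1 lower, and the median change was 0.07. Each call is 9.09% of the tested genes, against 2.16% higher and 4.23% lower over all tested rows. Here too the calls are too few to compare. Gria3, a subunit of AMPA-type glutamate receptors, was at 22.7, 20.1, 26.1 and 18.4 TPM in cKO and at 6.56, 7.98, 7.86 and 7.78 TPM in control. The groups lay far apart (log2 change 1.41, SE 0.104, limma adjusted p = 0.000100). Homer2, which links receptors to calcium stores, stood at 39.9 ± 3.09 TPM in cKO, lower than 53.1 ± 4.18 TPM in control (SD, n = 4; limma adjusted p = 0.0128, log2 change -0.41). The NMDA receptor genes Grin1, Grin2a, Grin2b, Grin2c and Grin2d all stayed below a mean of 1 TPM.

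**Figure D5:**
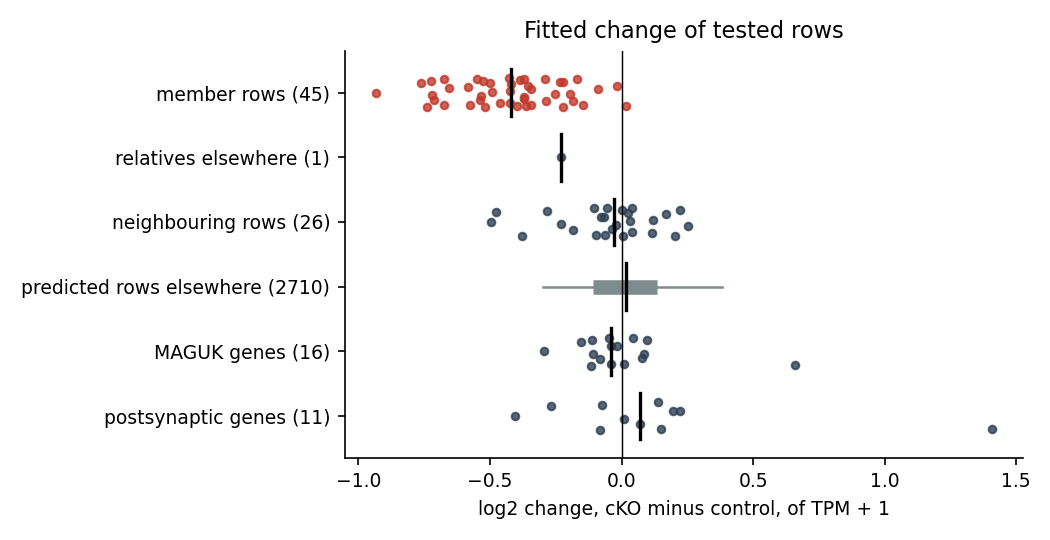
Fitted log2 change of TPM + 1 (cKO minus control, horizontal axis) for tested rows of 6 sets, with their numbers in parentheses; points are rows, the black tick is the median, and for the 2710 predicted rows elsewhere the thick and thin grey lines span the middle 50% and 90% of rows. The array has a median of -0.42, and the other sets with more than 1 row have medians between -0.04 and 0.07.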

How the data were processed

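The deposited table holds TPM values that the authors computed per gene for 8 libraries, per the file headers. The submitters' processing notes list FastQC, Trim Galore 0.6.7, HISAT2 2.2.1, StringTie 2.2.1, featureCounts, DESeq2 and GRCm38; which of them made the table, its annotation and its use of strand are not given in the sources used here. All 163 rows stood at the same position in RefSeq GRCm38.p6. TPM keeps no depth, so the spread of replicates is the only error available.

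The test was limma 3.58.1 in R 4.3.3 on log2(TPM + 1) (group as the only term, eBayes with trend, two-sided, Benjamini-Hochberg over 15541 rows averaging 1 TPM or more). This scale understates changes of low rows. On simulated data with 200 of 15541 rows changed, the fit recovered 98% of log2 changes of 1.5 and 82% of those of 0.75; false calls made up 7.22%, and 0 calls arose with nothing changed. Summed values outside the array were compared by an exact two-sided permutation over 70 assignments.

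The rows, gene lists and marker lists were chosen with earlier results of these data known. The rows given with values in every library were the 6 most abundant, the 4 at each end of the fitted changes, and those at the limits of the interval; the namesake 2610042L04Rik, the pairs of identical copies and the motif CCATATATGG were added after their values or sequences were seen. Related rows were found by protein alignment (BLAST+ 2.17.0, E of at most 1e-10 over at least 50% of the shorter protein) with proteins translated from GENCODE vM21 coding sequences, in place of the RefSeq protein table that had been planned and was not used here. Coding sequences were aligned with MAFFT 7.526. Promoters are those of RefSeq GRCm38.p6. Alternatives were pseudocounts of 0.1 and 5, no filter, a minimum mean of 5 TPM, rescaling after removal of mitochondrial and globin genes, median-ratio scaling, quantile normalization, eBayes with no trend, a replicate block and leaving out each library. Same-numbered libraries were not treated as pairs.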

Additional observations from a re-analysis of the deposited data

Results flagged for a closer look

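In 2 of 46 groups of 4 libraries examined, 1 library stood far from the other 3 by Dixon's criterion at 95%, which chance meets in about 1 in 20 groups. Gm3002 stood at 4.79 TPM in cKO 4, where the other 3 cKO libraries lay between 3.99 and 4.07 TPM, and cKO 4 was also the highest cKO library of the summed array. Esd-ps, a copy of the esterase gene Esd just above the 1 TPM threshold, stood at 1.96 TPM in control 4, where the other 3 control libraries lay between 0.967 and 1.11 TPM.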

How the results depend on the processing

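The summed level of the array kept its direction under all 13 alternatives (log2 ratio -0.65 to -0.55), and that of related rows elsewhere stayed at -0.35 to -0.14 with no call. The count of rows of the array called lower (17 of 45) did not hold in size. It was 5 of 7 at a mean of at least 5 TPM, 4 of 131 with no filter, 8 with the replicate block, 11 of 49 after rescaling, and 6 to 15 with a library left out, with none called higher. Its median change of -0.42 was -0.71 at a mean of at least 5 TPM, -0.0679 with no filter, -0.57 with a pseudocount of 0.1 and -0.19 with one of 5. Calls over all rows (994 of 15541) were 1010 of 11661 at a mean of at least 5 TPM and 347 of 32491 with no filter. They were 609 without trend, 420 with the replicate block and 388 to 936 with a library left out. For predicted rows elsewhere (64 calls) the counts were 37 with no filter, 32 with the replicate block and 23 to 74 with a library left out. Among MAGUK genes (2 calls) there were 0 without trend, with no filter and with the replicate block, 1 at a mean of at least 5 TPM and after median-ratio scaling, quantile normalization or rescaling, and 0 to 2 with a library left out. With no filter, neighbours had 2 calls and postsynaptic genes 1. The cause of these shifts was not tested. Signs turned only for values near 0: Gm3715 under quantile normalization (-0.0127) and with a library left out (-0.0306 to 0.0684), Gm3194 after rescaling (0.0058) and with a library left out (-0.0564 to 0.0263), Gm3252 (-0.16 to 0.0067) and Dlg5 (-0.033 to 0.0492) with a library left out. The replicate block changed no direction in the array. Same-numbered cKO and control libraries correlated at -0.09 to 0.07 in their deviations from the group means, so the block pairs libraries that share only a number. The unknown depth and the near-identical copies limit all values per row.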

Other observations

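Gm8104 (chr14:43057802-43114696), a relative of the array elsewhere on chromosome 14, was listed at 0 in all 4 control libraries and at 0.222, 0.0916, 0.169 and 0.0589 TPM in cKO 1 to 4. It was below the level at which rows were tested.

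Abhd6 (chr14:8002888-8056773), a monoacylglycerol lipase encoded shortly after the array, stood at 3.67 ± 0.842 TPM in cKO and 5.45 ± 0.658 TPM in control (SD, n = 4; log2 change -0.48, SE 0.140, limma adjusted p = 0.0729), close to the change of Cfap20dc but not called. It was picked after its value was seen.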
